A study of Mus musculus with 9 samples.

Results

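The 10 genes described here encode the adaptors, kinases and ubiquitin ligases that carry a signal from Toll-like receptor 4 (TLR4) into the macrophage along its MyD88 and TRIF arms. They were picked by symbol for their place in the pathway, with earlier results of these data known, and are 10 of the 24187 genes in the deposited tables. The MyD88 arm is represented by 7 genes (Myd88, Tirap, Irak4, Irak1, Irak2, Irak3 and Traf6) and the TRIF arm by 3 (Ticam1, Ticam2 and Traf3). Traf6 and Traf3 act in both arms and were placed by their better known partner. Expression was measured by RNA-seq in 9 libraries of macrophages grown from the bone marrow of C57BL/6 mice, labelled as 8 weeks of age. All cells had been cultured for 6 days in medium with 10 ng/ml macrophage colony-stimulating factor, and each state has 3 libraries. LPS_NCT503 cells received lipopolysaccharide (LPS, a cell wall component of Gram-negative bacteria and the ligand of TLR4) at 500 ng/ml together with NCT503 at 50 µM for 6 h, LPS cells received the same LPS alone for 6 h, and control cells were kept in medium for 6 h. NCT503 is an inhibitor of phosphoglycerate dehydrogenase, the first enzyme of serine synthesis from glycolytic carbon. No library received NCT503 without LPS, so what the inhibitor does to these genes in unstimulated cells was not measured. Whether the 3 libraries of a state come from different cultures or mice is not in the labels. The tests therefore speak to the variation among these libraries, which may be technical.

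TLR4 uses 2 pairs of adaptors. At the plasma membrane the bridging adaptor TIRAP brings in MyD88, which assembles the kinase IRAK4 with IRAK1 or IRAK2 and, through the ubiquitin ligase TRAF6, leads to NF-κB and inflammatory cytokines. After internalization the bridging adaptor TRAM (gene Ticam2) brings in TRIF (gene Ticam1), which reaches the kinase TBK1 through TRAF3 and leads to IRF3 and type I interferon. In macrophages IRAK-M (gene Irak3), a family member with little kinase activity, restrains the MyD88 arm during prolonged exposure to LPS.

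The 250 bases before the RefSeq transcription start (GRCm38.p6) are shown for the adaptor that names each arm and for Traf3, the ligase of the TRIF arm. Capitals mark matches, in either strand, to the 4 motifs searched. The position of a match is that of its first letter counted back from the start of transcription. The Myd88 window is chr9:119340019-119340268 on the minus strand, of which 23 bases lie in an exon of another Myd88 transcript. The Ticam1 window is chr17:56276768-56277017 on the minus strand, with 19 bases in an exon of the gene, and the Traf3 window is chr12:111166120-111166369 on the plus strand. Each is written 5′ to 3′ on the strand of its gene.
Myd88: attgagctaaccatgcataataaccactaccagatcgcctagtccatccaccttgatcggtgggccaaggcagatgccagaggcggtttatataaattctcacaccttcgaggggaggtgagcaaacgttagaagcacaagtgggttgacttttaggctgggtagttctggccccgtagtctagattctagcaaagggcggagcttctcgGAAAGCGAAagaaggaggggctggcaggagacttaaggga
Ticam1: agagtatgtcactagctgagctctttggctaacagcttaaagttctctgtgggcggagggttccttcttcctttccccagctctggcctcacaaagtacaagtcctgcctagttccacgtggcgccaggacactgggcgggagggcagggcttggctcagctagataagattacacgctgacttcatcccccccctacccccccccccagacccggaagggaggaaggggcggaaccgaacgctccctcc
Traf3: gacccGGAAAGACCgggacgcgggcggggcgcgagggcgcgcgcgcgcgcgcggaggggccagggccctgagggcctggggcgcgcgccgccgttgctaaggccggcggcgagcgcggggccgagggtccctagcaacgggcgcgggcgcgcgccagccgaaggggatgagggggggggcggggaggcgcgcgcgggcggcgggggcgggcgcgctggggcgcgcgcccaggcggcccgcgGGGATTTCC
The Myd88 window holds 1 match to an interferon-stimulated response element (GAAANNGAA) at position -40. The Traf3 window, at 85.2% G and C, holds 2 matches to an NF-κB site (GGNNNTTCC), at positions -245 and -9, and the Ticam1 window holds no match. Windows of 9 of the 10 members were found and Ticam2 was not among them. In the others, 1 of the Tirap windows holds an NF-κB match at position -21 and 1 of the Irak3 windows an interferon-response match at position -102. No window of a member holds a match to AP-1 (TGANTCA) or to the ATF4 response motif (TGATGNAA). Of 32851 RefSeq promoter windows of the same length, 15.7% hold the NF-κB letters, 7.13% the interferon-response letters, 6.75% the AP-1 letters and 3.45% the ATF4 letters. A match is a run of letters and not a measured binding site, and no occupancy was measured in these cells.

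The genes lie on 9 chromosomes of the mm10 build. Myd88 (chr9:119335934-119341411, minus strand) and Tirap (chr9:35184551-35200291, minus strand) share chromosome 9. The kinase genes are Irak4 (chr15:94543643-94581815, plus strand), Irak1 (chrX:74013914-74023918, minus strand), Irak2 (chr6:113638467-113695026, plus strand) and Irak3 (chr10:120141648-120202130, minus strand). The ligase genes are Traf6 (chr2:101678429-101701669, plus strand) and Traf3 (chr12:111166370-111267153, plus strand), and the TRIF-arm adaptors are Ticam1 (chr17:56269319-56276786, minus strand) and Ticam2 (chr18:46559155-46574533, minus strand). For 9 genes the span and summed exon length equal those in GENCODE M21. Ticam2 is shorter in the deposited tables, with 3928 exon bases against 5792 in GENCODE M21. Exons of 7 members overlap an exon of another gene. The overlaps are with a gene on the opposite strand for Myd88 (Acaa1a, 290 bases), Tirap (Gm39318, 446 bases, and Srpr, 39 bases), Irak4 (Twf1, 395 bases), Irak2 (Gm43963, 196 bases) and Irak3 (Tmbim4, 192 bases, and Gm47009, 28 bases), and with a gene on the same strand for Ticam2 (Tmed7, 838 bases) and Irak1 (the microRNA genes Mir5132 and Mir718). The strand setting of the counting is not given in the sources used here, so values of these 7 genes are uncertain by whatever reads were shared. Exons of Traf6, Ticam1 and Traf3 overlap no other gene.

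Reads assigned to genes totalled 20295862 to 23599685 per library over the 21434 genes in both tables, and every member had at least 61 reads in every library. Values below are normalized reads, that is reads divided by a library size factor, and log2 fold changes are those of normalized reads plus 1, with their standard error. A gene is said to rise or fall where limma gave an adjusted p (Benjamini-Hochberg over all genes tested) under 0.05. Markers of macrophages were abundant in every library, with a summed level of 121500 to 165700 normalized reads per kb of exon in LPS_NCT503, 275000 to 325800 in LPS and 175000 to 229600 in control libraries. With NCT503 against LPS, 16.9% of all genes tested rose and 15.7% fell, shares to set beside the marker counts that follow. Of 10 macrophage markers 1 rose (Mrc1, log2 fold change 1.70) and 5 fell with NCT503 against LPS, while 4 did not pass the test. Those that fell were Fcgr1 (−2.75), Cd14 (−2.38), Spi1 (−1.83), Lyz2 (−1.14) and Mertk (−0.88). The 4 that did not pass were Itgam (−0.89), Adgre1 (−0.36), Csf1r (0.08) and Cd68 (0.03). For Itgam the groups did not overlap (limma adjusted p = 0.0807). Neutrophil markers, summed over 9 genes, stood at 273 to 533 per kb in LPS_NCT503, 2968 to 7236 in LPS and 3985 to 6948 in control libraries, and 8 of the 9 fell with NCT503 against LPS (Cxcr2 and Retnlg had no read in the LPS_NCT503 libraries). All 5 mast cell and basophil markers tested fell as well (74.9 to 102, 477 to 633 and 361 to 523 per kb in LPS_NCT503, LPS and control libraries). Stromal markers were also present, at 2925 to 7366, 2728 to 5726 and 917 to 4292 per kb in the same order of states, with 1 of 10 higher and 3 lower with NCT503 against LPS. The part of these markers in the results below was not tested, and in bulk RNA fewer cells of a type and less RNA per cell cannot be told apart.

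Per kb of exon, the scale on which levels of different genes can be compared, Ticam1 had the highest mean of the members in LPS_NCT503 cells, whereas Myd88 had the highest in LPS cells and in control cells. Myd88 had 548 ± 58.5 normalized reads per kb in LPS_NCT503, 3229 ± 567 in LPS and 559 ± 71.1 in control libraries (SD, n = 3). Ticam1 had 1036 ± 116 in LPS_NCT503, 591 ± 96.5 in LPS and 251 ± 31.5 in control libraries. In LPS_NCT503 cells the order was Ticam1 and Irak2, then Irak3, Myd88 and Traf3, then Irak1, then Ticam2 and Traf6, then Irak4, then Tirap. Members joined by "and" in this order had overlapping library ranges between neighbours. In LPS cells it was Myd88, then Irak3 and Irak2, then Ticam1, then Ticam2 and Irak1, then Traf3, then Irak4, then Tirap and Traf6. In control cells it was Myd88, then Irak1, then Ticam1, then Irak3, Irak2 and Irak4, then Traf3 and Ticam2, then Traf6 and Tirap. Myd88 thus held rank 4 with NCT503 and rank 1 in the other 2 states. Tirap, which brings MyD88 to the receptor, was the least abundant member in LPS_NCT503 and in control cells, at 14.3 ± 1.82 and 33.3 ± 4.09 per kb, against 76.2 ± 7.80 in LPS cells.

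**Figure D1:**
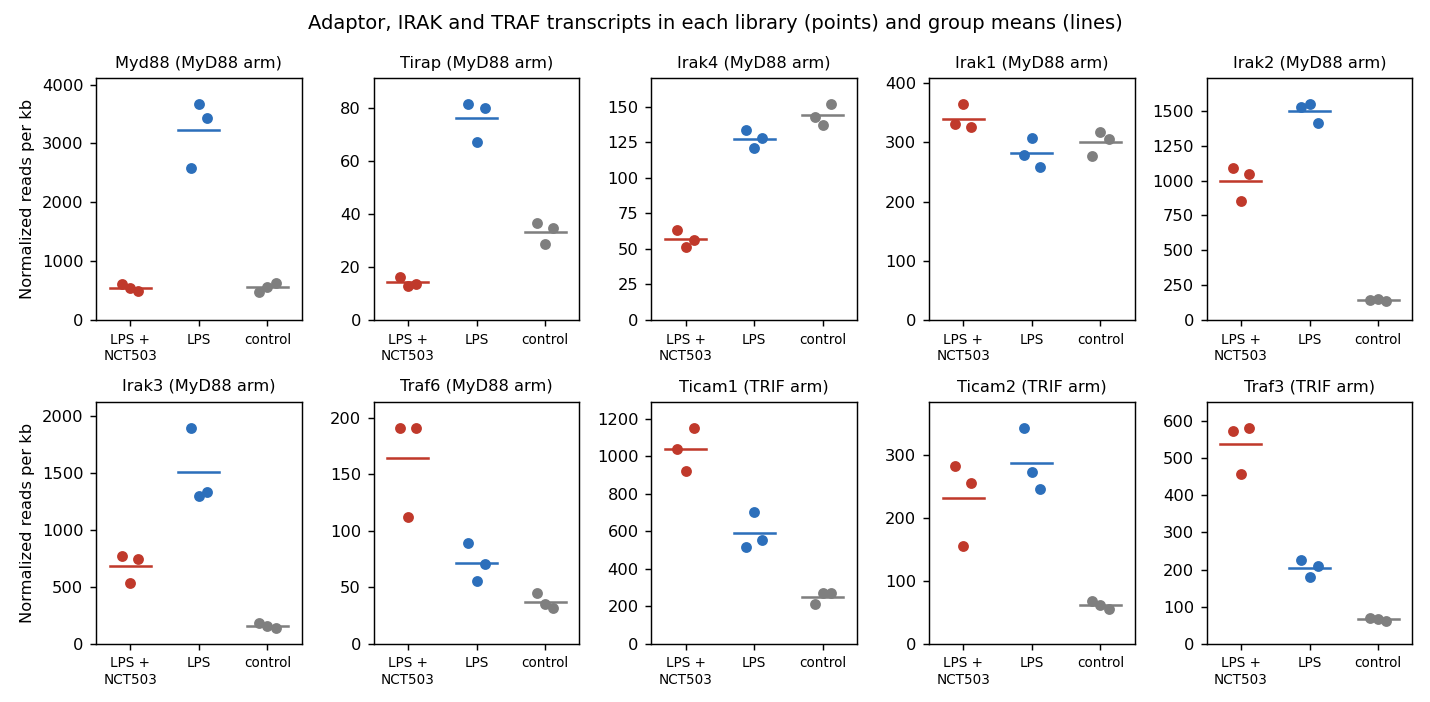
Normalized reads per kb of exon of the 10 genes in each library (points) with the group mean (line), 1 panel a gene, for LPS + NCT503, LPS and control from left to right, with the 9 libraries scaled together and each y axis starting at 0. The 3 LPS + NCT503 points of Myd88 (488 to 605 per kb) lie beside the control points (483 to 624 per kb), whereas those of Traf3 (457 to 582 per kb) lie above every LPS and control point.

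The first comparison asks how the members respond to LPS alone. LPS raised 8 of the 10 genes, from both arms, and the largest increases were those of the kinase genes Irak2 and Irak3 and of the adaptor Myd88. Of all 19975 genes tested, 41.8% were called, with 20.5% higher and 21.4% lower. In the MyD88 arm 5 of 7 members rose (median log2 fold change 1.20) and in the TRIF arm 3 of 3 did (median 1.63), beside a median of −0.05 over all genes. No member was called lower by limma, edgeR or DESeq2, and 0 were lower at an unadjusted p under 0.05. The groups did not overlap for 9 members, 8 higher and 1 lower (Irak4), where 24.4% and 26.5% of all genes were such. The authors' deposited table also has 8 members higher at an adjusted p under 0.05, where 33.9% of all genes pass.

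Irak2, the kinase that sustains signalling late after stimulation, had 6950, 7003 and 6426 normalized reads in the LPS libraries, against 659, 676 and 635 in the control libraries. Every LPS library stood about an order of magnitude above every control library (log2 fold change 3.37 ± 0.13, adjusted p = 7.10e-09). Irak3, the inhibitory member of the family, had 7160, 4871 and 5051 in LPS and 675, 575 and 529 in control libraries (3.25 ± 0.18, adjusted p = 8.25e-08). These genes of opposite function in the arm thus rose by amounts whose intervals overlap (3.08 to 3.66 for Irak2 and 2.85 to 3.64 for Irak3).

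Myd88 had 6869, 9682 and 9128 normalized reads in the LPS libraries, against 1270, 1507 and 1655 in the control libraries (2.53 ± 0.17, adjusted p = 4.86e-07). Ticam2, the bridging adaptor of the TRIF arm, had 1391, 1103 and 999 in LPS and 275, 248 and 227 in control libraries (2.20 ± 0.17, adjusted p = 1.29e-06). The other adaptors moved less, with a log2 fold change of 1.24 ± 0.17 for Ticam1 (adjusted p = 0.000108) and 1.20 ± 0.18 for Tirap (adjusted p = 0.000219). In all 4 adaptor genes every LPS library lay above every control library. Of the ligase genes, Traf3 rose by 1.63 ± 0.15 (adjusted p = 4.95e-06) and Traf6 by 0.93 ± 0.21 (adjusted p = 0.00355). Scaling by library totals alone (CPM) shifted the median of all genes by −0.63, and under it Tirap (0.50, adjusted p = 0.0662) and Traf6 (0.23, adjusted p = 0.494) did not pass.

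Irak4 and Irak1, the kinases that act first in the arm, were not called with LPS. Irak4, which starts the kinase cascade, had 691, 624 and 662 normalized reads in LPS and 732, 706 and 783 in control libraries (−0.17 ± 0.14, 95% interval −0.48 to 0.14, adjusted p = 0.367). Irak1, its substrate, had 1351, 1489 and 1254 in LPS and 1335, 1535 and 1485 in control libraries (−0.09 ± 0.14, interval −0.40 to 0.22, adjusted p = 0.643). Irak4 libraries of the groups did not overlap and Irak1 libraries did. Both genes were called lower under CPM scaling, at −0.87 for Irak4 and −0.79 for Irak1, and Irak1 also under quantile scaling, at −0.51. Relative to the shifted median of all genes, the CPM values were −0.18 for Irak4 and −0.11 for Irak1.

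The second comparison asks which of these genes differ when NCT503 accompanies LPS. In the MyD88 arm 5 of 7 genes were lower, with Myd88 at 0.170 times and Tirap at 0.188 times their LPS level, and with Irak4, Irak3 and Irak2 lower as well. Traf6, of the MyD88 arm, was higher, as were Ticam1 and Traf3 in the TRIF arm. Of the 19795 genes tested 32.6% were called, 16.9% higher and 15.7% lower. Of the 10 members 3 rose and 5 fell. In the MyD88 arm the median log2 fold change was −1.13, and in the TRIF arm 2 of 3 rose (median 0.82), beside a median of 0.08 over all genes. No TRIF-arm gene was called lower by limma, edgeR or DESeq2, or at an unadjusted p under 0.05. The groups did not overlap for 9 members, 4 higher and 5 lower, where 22.9% and 22% of all genes were such. CPM scaling moved the split of all called genes to 4405 higher and 2136 lower, against 3351 and 3098, and shifted the median of all genes by 0.23. In the comparison deposited by the authors, 3 members pass as higher and 5 as lower at an adjusted p under 0.05, where 27.4% of all genes pass (the authors' deposited table).

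Myd88 had 1339, 1213 and 1085 normalized reads in the LPS_NCT503 libraries, against 5681, 8160 and 7580 in the LPS libraries. The highest LPS_NCT503 library was far below the lowest LPS library. Means were 1212 ± 127 in LPS_NCT503 and 7141 ± 1297 in LPS libraries (SD, n = 3 each), a log2 fold change of −2.55 ± 0.19 (interval −2.95 to −2.14, adjusted p = 3.01e-06), and 1.25% of all genes tested had a lower one. Tirap had 69.2, 54.2 and 57.9 in LPS_NCT503 and 342, 286 and 338 in LPS libraries, again with no overlap. Its log2 fold change was −2.40 ± 0.21 (interval −2.86 to −1.94, adjusted p = 1.01e-05), and 1.52% of all genes tested had a lower one. Across the 16 alternative settings the change of Myd88 ranged from −2.70 to −2.30 and that of Tirap from −2.53 to −2.16, and every setting kept both calls.

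In the kinase family Irak4, Irak3 and Irak2 fell and Irak1 did not pass the test. Irak4 had 274, 219 and 243 normalized reads in LPS_NCT503 and 571, 526 and 549 in LPS libraries, so that the groups were well separated (−1.16 ± 0.18, adjusted p = 0.00047). Irak3 had 2442, 1672 and 2364 in LPS_NCT503 and 5922, 4106 and 4195 in LPS libraries (−1.13 ± 0.21, adjusted p = 0.0017), and its 2 groups did not overlap although LPS 1 stood above LPS 2 and LPS 3. Irak2 had 4125, 3223 and 3978 in LPS_NCT503 and 5748, 5902 and 5336 in LPS libraries (−0.59 ± 0.17, adjusted p = 0.0181). Every LPS_NCT503 library was below every LPS library, but the call of Irak2 was lost without LPS_NCT503 3 (−0.63, adjusted p = 0.0552), without LPS 2 (−0.56, adjusted p = 0.0527) or without LPS 3 (−0.63, adjusted p = 0.0557), and under CPM (−0.35, adjusted p = 0.114) and quantile scaling (−0.34, adjusted p = 0.102). Irak1 had 1341, 1467 and 1322 in LPS_NCT503 and 1118, 1255 and 1042 in LPS libraries, with no overlap and a change of 0.28 ± 0.16 that did not pass (interval −0.08 to 0.63, adjusted p = 0.22). Under CPM scaling Irak1 was called higher (0.52, adjusted p = 0.0294).

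**Figure D2:**
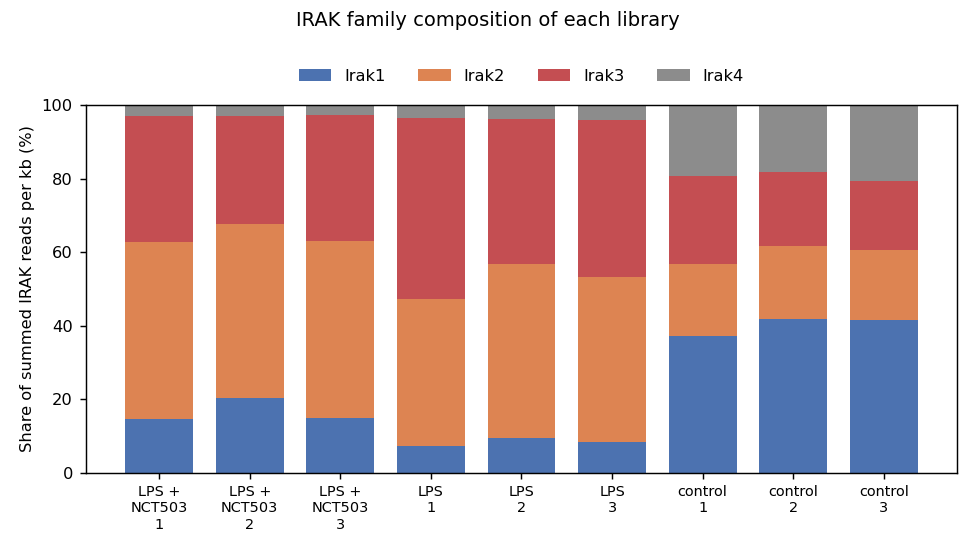
Share of each IRAK family member in the summed normalized reads per kb of the 4 genes, by library, for LPS + NCT503, LPS and control from left to right. Irak1 and Irak4 together make up most of the family only in the 3 control libraries, and Irak2 holds 47.4% to 48.2% in the LPS + NCT503 libraries.

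The make-up of the kinase family followed from these changes. Irak1 was 16.6 ± 3.11% of the summed IRAK reads per kb in LPS_NCT503, 8.31 ± 1.08% in LPS and 40.2 ± 2.64% in control libraries (SD, n = 3). Irak2 was 47.9 ± 0.436%, 44.1 ± 3.82% and 19.4 ± 0.417% in the same states, and Irak3 32.7 ± 2.75%, 43.8 ± 5.03% and 21.1 ± 2.69%. Irak4, the kinase on which the others depend, was 2.74 ± 0.140% in LPS_NCT503, 3.76 ± 0.302% in LPS and 19.3 ± 1.23% in control libraries. The family sum was 2077 ± 241 normalized reads per kb in LPS_NCT503, 3410 ± 372 in LPS and 746 ± 8.87 in control libraries. The LPS_NCT503 libraries had the lowest share of Irak4 of the 3 states and the LPS libraries the lowest share of Irak1. These shares are arithmetic on the levels above and were given no test of their own.

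Traf6, the ligase that the IRAK complex activates, had 1293, 757 and 1299 normalized reads in LPS_NCT503 and 599, 378 and 476 in LPS libraries. The groups did not overlap, and the change was 1.18 ± 0.25 (adjusted p = 0.00367), opposite in sign to that of Myd88 and Irak4. Of the 6 called members of its arm Traf6 was the 1 that rose.

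In the TRIF arm Ticam1, the adaptor itself, had 2672, 2349 and 2968 normalized reads in LPS_NCT503 and 1320, 1812 and 1424 in LPS libraries. Every LPS_NCT503 library was above every LPS library (2663 ± 310 against 1518 ± 259, log2 fold change 0.82 ± 0.18, adjusted p = 0.00523). Traf3, which links TRIF to TBK1, had 3625, 2870 and 3687 in LPS_NCT503 and 1406, 1136 and 1318 in LPS libraries. Its groups did not overlap either (1.39 ± 0.18, interval 1.01 to 1.78, adjusted p = 0.000123). Ticam2 had 957, 522 and 866 in LPS_NCT503 and 1150, 930 and 829 in LPS libraries, and the groups overlapped (−0.34 ± 0.24, interval −0.87 to 0.18, adjusted p = 0.296). The LPS_NCT503 2 library was the lowest of its state for 8 of the 10 members, as it was for 41.6% of all genes, and without it the member counts were still 3 higher and 5 lower.

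**Figure D3:**
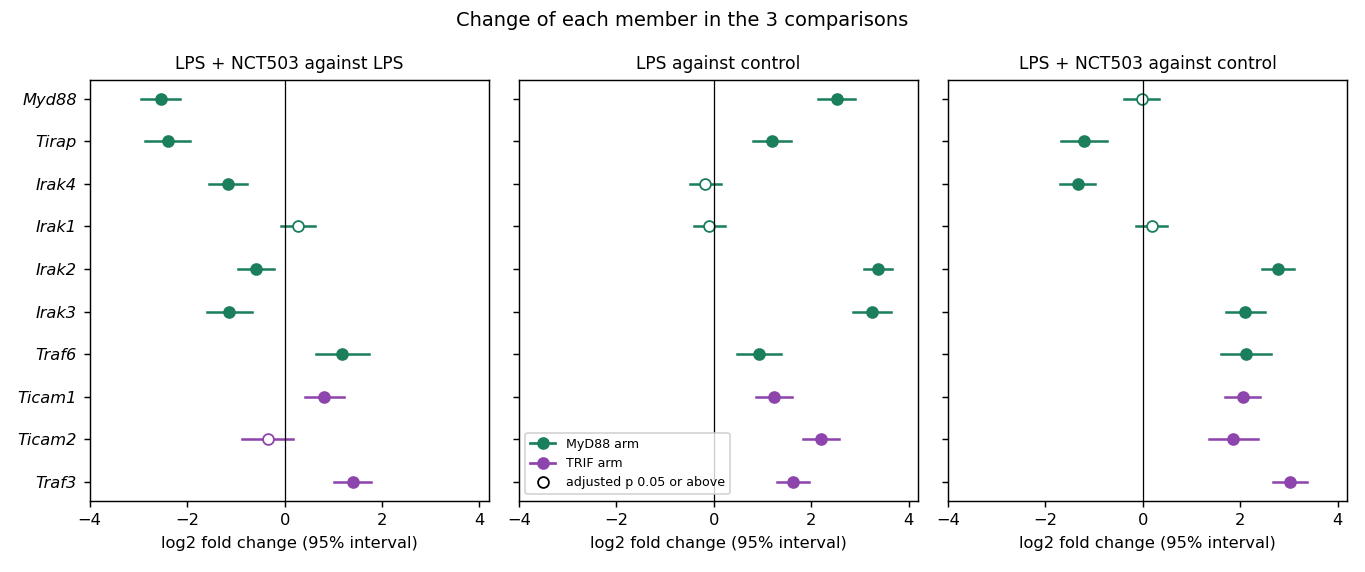
Log2 fold change of each gene with its 95% interval in the 3 comparisons, coloured by arm, with open circles where the adjusted p was 0.05 or above. With LPS + NCT503 against LPS the points run from −2.55 (Myd88) to 1.39 (Traf3), and the TRIF-arm genes of the third panel lie between 1.85 and 3.02.

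The arms were contrasted directly by the log2 ratio of a TRIF-arm gene to its MyD88-arm counterpart within each library, a measure that hardly depends on how libraries are scaled. Ticam1 over Myd88 was 1.00, 0.95 and 1.45 in the LPS_NCT503 libraries, against −2.11, −2.17 and −2.41 in the LPS libraries, where reads are not corrected for length. Myd88 reads exceeded Ticam1 reads in all 3 LPS libraries and the reverse held in all 3 LPS_NCT503 libraries. The difference was 3.36, a 10.3-fold change of the ratio. The exact two-sided permutation p was 0.1, the smallest that 3 libraries against 3 can give, and 0.113 after Benjamini-Hochberg adjustment over the 9 ratio tests, so no ratio could pass 0.05.

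For the bridging adaptors, Ticam2 over Tirap was 3.77, 3.24 and 3.88 in LPS_NCT503 and 1.75, 1.70 and 1.29 in LPS libraries. The groups did not overlap, with a difference of 2.05 or 4.15-fold (exact p = 0.1, adjusted 0.113). For the ligases, Traf3 over Traf6 was 1.49, 1.92 and 1.50 in LPS_NCT503 and 1.23, 1.58 and 1.47 in LPS libraries. These ranges overlapped and the difference was 0.21 (exact p = 0.4, adjusted 0.4). With LPS against control the adaptor ratios moved in opposite directions, by −1.29 for Ticam1 over Myd88 and by 1.01 for Ticam2 over Tirap, while Traf3 over Traf6 moved by 0.70, each without overlap (exact p = 0.1, adjusted 0.113).

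**Figure D4:**
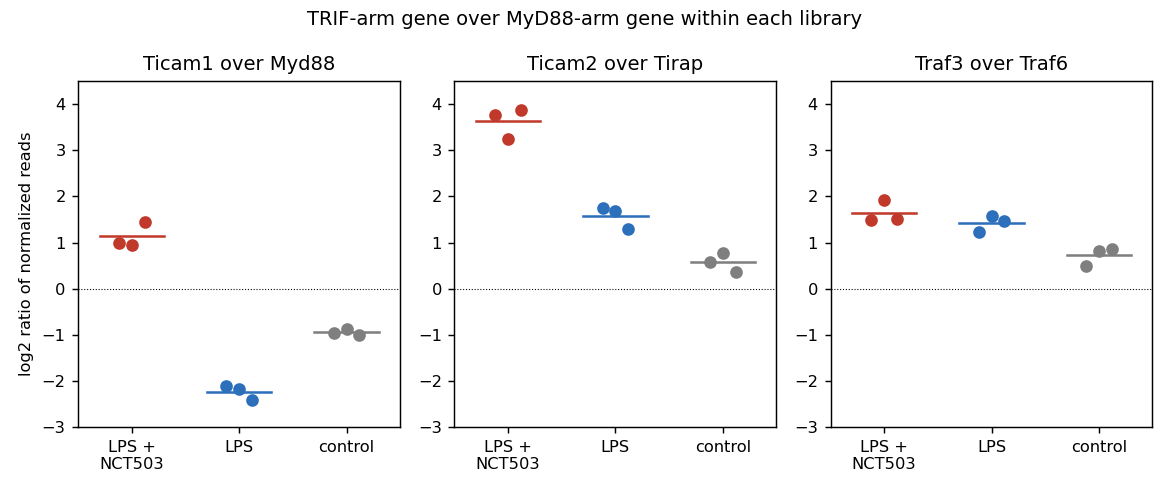
Within-library log2 ratios of 3 pairs of genes (points, 1 per library; line, group mean), for LPS + NCT503, LPS and control from left to right. Ticam1 over Myd88 is above 0 in the 3 LPS + NCT503 libraries and below 0 in the 3 LPS and 3 control libraries.

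On the per-kb scale Ticam1 stood at 1.91 ± 0.384 times Myd88 in LPS_NCT503, 0.184 ± 0.0201 times in LPS and 0.449 ± 0.0200 times in control libraries. Of the reads per kb of the 4 adaptor genes, Ticam1 made up 56.6 ± 3.45% in LPS_NCT503, 14.1 ± 1.11% in LPS and 27.7 ± 1.13% in control libraries. Myd88 made up 30.1 ± 4.11%, 76.9 ± 3.24% and 61.7 ± 1.62% in the same states. The TRIF arm as listed held 39.1 ± 1.60% of the reads per kb of all 10 genes with NCT503, against 13.8 ± 0.585% with LPS alone and 21.6 ± 0.579% in control libraries.

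The third comparison asks where the members stood relative to unstimulated cells. With LPS and NCT503 together, the TRIF-arm genes and Irak2, Irak3 and Traf6 were above control, Tirap and Irak4 were below it, and Myd88 and Irak1 did not pass the test. This comparison joins the 2 deposited tables through their common LPS libraries. It shares its control libraries with the first comparison and its LPS_NCT503 libraries with the second, so the 3 sets of changes are not independent. Of the 19930 genes tested 40.4% were called, 20.7% higher and 19.7% lower, and of the 10 members 6 rose and 2 fell. In the TRIF arm 3 of 3 rose (median 2.05) and in the MyD88 arm 3 of 7 rose and 2 fell (median 0.18), beside a median of 0.05 over all genes. The groups did not overlap for 9 members, 7 higher and 2 lower, where 25.3% and 24.9% of all genes were such. CPM scaling, which shifted the median by −0.42, gave 2448 higher and 6567 lower genes, against 4134 and 3927.

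Myd88 had 1559, 1419 and 1258 normalized reads in LPS_NCT503 and 1245, 1467 and 1608 in control libraries. The groups overlapped, and the change of −0.03 ± 0.16 had an interval of −0.38 to 0.33 (adjusted p = 0.912). Under CPM scaling it was −0.48 (adjusted p = 0.0141), which is −0.105 relative to the shifted median. Tirap had 80.5, 63.5 and 67.1 in LPS_NCT503 and 180, 141 and 171 in control libraries (−1.21 ± 0.21, adjusted p = 0.00108). Irak4 had 319, 256 and 281 in LPS_NCT503 and 717, 687 and 761 in control libraries (−1.34 ± 0.16, adjusted p = 8.15e-05). For both genes every LPS_NCT503 library lay below every control library.

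Irak1 had 1562, 1717 and 1533 in LPS_NCT503 and 1309, 1494 and 1443 in control libraries (0.18 ± 0.14, interval −0.13 to 0.49, adjusted p = 0.341), a value that turned to −0.27 under CPM and −0.13 under quantile scaling. Irak2 had 4802, 3772 and 4612 in LPS_NCT503 and 646, 658 and 617 in control libraries (2.77 ± 0.15, adjusted p = 3.33e-07). Irak3 rose by 2.11 ± 0.18 (adjusted p = 9.68e-06) and Traf6 by 2.11 ± 0.23 (adjusted p = 5.04e-05). For these 3 genes every LPS_NCT503 library was above every control library.

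Traf3 had 4220, 3359 and 4275 normalized reads in LPS_NCT503 and 506, 495 and 451 in control libraries (3.02 ± 0.15, adjusted p = 2.31e-07). Ticam1 had 3111, 2749 and 3442 in LPS_NCT503 and 642, 802 and 807 in control libraries (2.05 ± 0.16, adjusted p = 4.59e-06). Ticam2 had 1114, 611 and 1004 in LPS_NCT503 and 270, 242 and 220 in control libraries (1.85 ± 0.23, adjusted p = 0.000106). The ranges of all 3 TRIF-arm genes were clear of control. The log2 ratio differed from control by 2.07 for Ticam1 over Myd88, 3.06 for Ticam2 over Tirap and 0.91 for Traf3 over Traf6, each without overlap (exact p = 0.1, adjusted 0.113).

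Another 46 genes of the pathway, from the receptor to the kinases and ligases below TRAF6 and TRAF3, were listed beside the members. With NCT503 against LPS 12 of them rose, 13 fell and 21 did not pass (median log2 fold change −0.15), which is 26.1% higher and 28.3% lower beside 16.9% and 15.7% of all genes tested. In the receptor complex Cd14, the co-receptor that hands LPS to TLR4, fell by 2.38 ± 0.22 on the log2 scale (adjusted p = 1.47e-05). Its LPS_NCT503 libraries had 11301, 19614 and 11660.1 normalized reads, against 64099, 78193 and 72828 in the LPS libraries. The receptor gene Tlr4 itself (−0.01 ± 0.25, interval −0.56 to 0.53, adjusted p = 0.971) and its partners Ly96 (−0.36 ± 0.19, adjusted p = 0.18) and Lbp (−1.01 ± 0.39, adjusted p = 0.0687) did not pass. Lbp was called lower without LPS 1 (−1.26, adjusted p = 0.0461), under quantile scaling (−1.24, adjusted p = 0.0277), with all 9 libraries in 1 fit (−1.02, adjusted p = 0.0409) and with a replicate block (adjusted p = 0.0209). Of 8 receptor-level regulators, Scimp, a membrane adaptor that binds Toll-like receptors, fell the most, with 55.2, 40.9 and 46.7 reads in LPS_NCT503 and 557, 582 and 939 in LPS libraries (−3.81 ± 0.25, adjusted p = 1.18e-06). Pik3ap1, which couples the receptors to PI3 kinase, fell (−0.97 ± 0.17) and Tollip, an inhibitor of IRAK1, rose (1.10 ± 0.15, adjusted p = 0.000268). Il1rl1 (0.81 ± 0.43, adjusted p = 0.172) did not pass.

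Downstream of Traf6, 7 of 15 genes rose and 4 fell (46.7% and 26.7%). Irf5, a transcription factor engaged through MyD88, had 3165, 2853 and 2646 normalized reads in LPS_NCT503 and 7531, 11622 and 10370.2 in LPS libraries (−1.75 ± 0.19, adjusted p = 4.91e-05). Tnip1, a partner of the deubiquitinase A20, fell (−1.20 ± 0.16), whereas the ubiquitin ligase Peli3 (1.99 ± 0.25) and the NF-κB kinase scaffold Ikbkg (1.10 ± 0.18) rose. Downstream of Ticam1 and Traf3, 1 of 11 rose (Tank, 0.75) and 5 fell (9.09% and 45.5%), against the 16.9% and 15.7% of all genes given above. Those with the smallest p were Tbkbp1 (−1.48 ± 0.22), a TBK1 adaptor, the kinase Ikbke (−1.14 ± 0.17), the transcription factor Irf3 (−1.04 ± 0.18) and Casp8 (−1.23 ± 0.23). Irf3 had 388, 442 and 372 reads in LPS_NCT503 and 693, 954 and 845 in LPS libraries, with no overlap (adjusted p = 0.00127). Of 8 other TRAF and cIAP ligases 1 fell, Traf2 (−1.02 ± 0.17, adjusted p = 0.000912), and 3 rose. These were Traf5 (0.64), Traf4 (0.89) and Xiap (0.93), and each of these 3 calls was lost on leaving out some single libraries. The adjusted p was 0.0529 to 0.115 without LPS_NCT503 1, LPS_NCT503 3, LPS 1 or LPS 2 for Traf5. It was 0.0675 to 0.0778 without LPS_NCT503 2, LPS_NCT503 3, LPS 1, LPS 2 or LPS 3 for Traf4, and 0.139 to 0.152 without LPS_NCT503 1, LPS_NCT503 3, LPS 2 or LPS 3 for Xiap. The Traf4 call was also lost under quantile scaling (adjusted p = 0.0781). That of Xiap was also lost with a pseudocount of 0.1 (adjusted p = 0.05445).

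**Figure D5:**
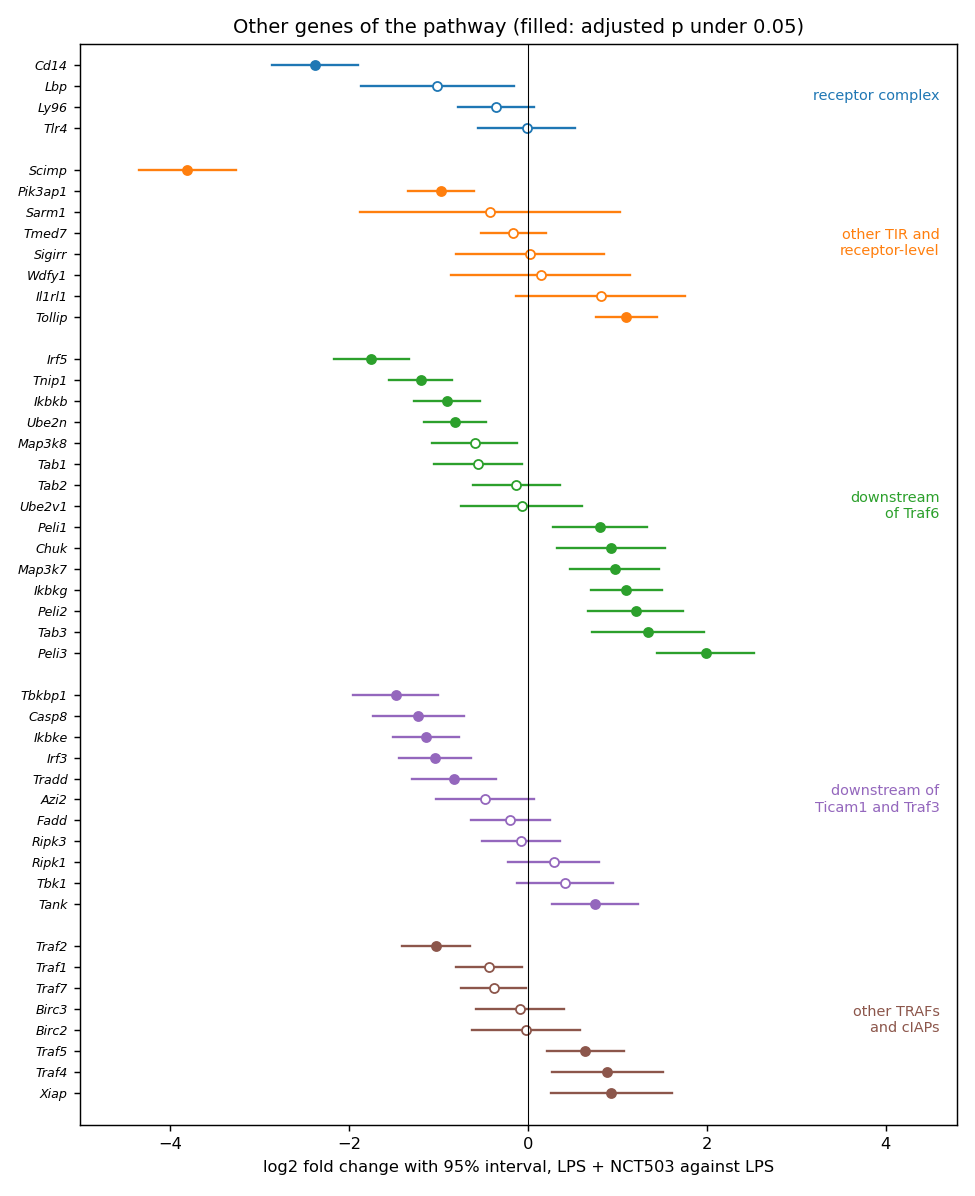
Log2 fold change with its 95% interval of the 46 other pathway genes, LPS + NCT503 against LPS, grouped by position in the pathway and ordered within a group (filled, adjusted p under 0.05). Scimp (−3.81) and Cd14 (−2.38) lie furthest to the left, and 5 of the 11 genes downstream of Ticam1 and Traf3 are filled to the left of 0.

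With LPS against control, 27 of the 46 rose and 5 fell, or 58.7% and 10.9%, beside 20.5% and 21.4% of all genes tested. Traf1, a regulator of TRAF2 and cIAP complexes, rose by 5.67 ± 0.14 (adjusted p = 3.44e-10) and Scimp by 4.70 ± 0.23, Cd14 by 4.39 ± 0.17 and Tnip1 by 3.49 ± 0.16, while Tlr4 fell by 0.81 ± 0.17 on the log2 scale. With LPS and NCT503 against control 24 rose and 8 fell, or 52.2% and 17.4%, beside 20.7% and 19.7% of all genes tested. Traf1 was above control (5.23 ± 0.15, adjusted p = 8.80e-09), and Cd14 had 13156, 22954 and 13519 normalized reads in LPS_NCT503 and 3244, 4199.7 and 4658 in control libraries (adjusted p = 6.59e-05). Scimp was at 64.2, 47.9 and 54.1 normalized reads in LPS_NCT503 and 26.6, 31.5 and 30.5 in control libraries (0.88 ± 0.26, adjusted p = 0.022), a call lost without LPS_NCT503 1 (adjusted p = 0.0863), LPS_NCT503 3 (adjusted p = 0.0645), control 2 (adjusted p = 0.0675) or control 3 (adjusted p = 0.0538). The Scimp call was also lost under CPM scaling (0.44, adjusted p = 0.192).

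Likeness was ranked over the 9 libraries among 9049 genes with at least 100 normalized reads on average, leaving out provisional names (Gm or Rik). The genes whose log2 values were most alike to those of Myd88 were Actb (Pearson r 0.9991), Nrbp1 (0.9976), Lgals9 (0.9975) and Aldh1b1 (0.9973). Actb, which encodes β-actin, averaged 37140 normalized reads in LPS_NCT503, 198500 in LPS and 39080 in control libraries, the same order of states as Myd88. Those most alike to Ticam1 were Sqstm1 (0.9945), Csnk2a2 (0.9939), Chtop (0.9921) and E2f5 (0.9913). Sqstm1, an autophagy receptor, averaged 205100 in LPS_NCT503, 80970 in LPS and 19790 in control libraries. The 9 points share only 3 states, so these values describe likeness of pattern and carry no test.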

How the data were processed

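RNA-seq libraries of mouse bone-marrow-derived macrophages were analysed, 3 each of LPS_NCT503, LPS and control, grouped by their titles. TopHat2 and the mm10 build are named in the submitters' processing notes. Which read counter, annotation and strand setting were used is not given in the sources used here. There are 2 tables deposited by the authors, LPS with NCT503 against LPS (22620 genes) and LPS against control (23001 genes). Each deposited table holds a signal per library and, per the file headers, the authors' log2 fold change, p-value and adjusted p-value. That the signal is reads divided by a size factor was inferred from the values. All values (100%) were whole multiples of 1 read within a tolerance of 0.001, and LPS reads were the same in both tables, so the 9 libraries were joined over 21434 shared genes and scaled with median-of-ratios factors for LPS_NCT503 against control and for levels per kb. A count or FPKM unit had been foreseen, and the log-scale test planned for normalized values was used, with edgeR and DESeq2 on the recovered reads as alternatives.

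The fit was limma-trend (version 3.58.1, R 4.3.3, robust eBayes), over genes averaging 1 or more normalized reads in either group, on log2(normalized reads + 1), which understates changes of low genes, with genes called at a Benjamini-Hochberg adjusted p under 0.05. All 10 members passed this filter in every comparison. Alternatives were a pseudocount of 0.1, no filter, a minimum mean of 10, TMM, CPM and quantile scaling, edgeR 4.0.16 quasi-likelihood, DESeq2 1.42.0, all 9 libraries in 1 fit, a replicate block and leaving out each library. The limma fit was tested on simulated counts. Members, gene lists, markers and motifs were chosen with earlier results of these data known. All members are named, with up to 4 genes of smallest p per pathway list and comparison and the 4 genes most alike to Myd88 and to Ticam1. Tank was named after its value was seen, as were the macrophage and neutrophil markers. The marker genes Ly6g and Tpsb2 were not used here. Other marker lists, summed per kb, were T and natural killer cell (790 to 1301 in LPS_NCT503, 532 to 667 in LPS, 981 to 1635 in control libraries, where Cd4 alone averaged 3744 and 1736 normalized reads in LPS_NCT503 and LPS), B cell (3.34 to 14.4, 7.87 to 23.8, 56.7 to 64.9) and dendritic cell (85.7 to 152, 314 to 383, 41.0 to 49.8). With NCT503 against LPS, 1 of 8 T and natural killer cell markers rose (Cd4) and 5 fell, and 1 of 3 B cell and 1 of 6 dendritic cell markers fell. Of all genes tested 16.9% rose and 15.7% fell. Sequences are from RefSeq.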

Additional observations from a re-analysis of the deposited data

How the results depend on the processing

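The 9 differences of the within-library ratios kept their direction and moved by less than the spread between replicates under a pseudocount of 0.1, CPM scaling, the replicate block and each left-out library. For Ticam1 over Myd88 with LPS_NCT503 against LPS the range was 3.20 to 3.45. Member counts with LPS_NCT503 against LPS were 3 to 4 higher and 4 to 5 lower over 16 alternatives, with the loss of Irak2 and the gain of Irak1 given above. With LPS against control they were 6 to 8 higher, and members called lower numbered 2 under CPM scaling (Irak4, Irak1) and 1 under quantile scaling (Irak1), against 0 in the limma test as reported, in edgeR and in DESeq2. With LPS_NCT503 against control they were 6 higher and 2 to 3 lower. Leaving out 1 library gave 4334 to 7304 genes called with LPS_NCT503 against LPS, 6432 to 8553 with LPS against control and 5808 to 9141 with LPS_NCT503 against control.

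Values near 0 changed sign. With LPS_NCT503 against LPS, Tlr4 was at 0.23 under CPM scaling, 0.0466 in edgeR and 0.0129 in DESeq2, and leaving out 1 library gave −0.20 to 0.24. With LPS against control, Lbp (−0.13) was at 0.18 under quantile scaling, and leaving out 1 library gave −0.41 to 0.11. With LPS_NCT503 against control, Myd88 was at 0.0547 without LPS_NCT503 3 and 0.0578 without control 3, and Irak1 at −0.27 under CPM and −0.13 under quantile scaling. The cause was not tested.

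Correlations of same-numbered libraries 1, 2 and 3 were 0.195, 0.178 and −0.038 with LPS_NCT503 against LPS, 0.111, 0.0247 and 0.00851 with LPS against control and 0.0201, −0.0996 and −0.0977 with LPS_NCT503 against control. In the first of these, libraries 1 and 2 of each group correlated best with their own number and libraries 3 did not. In no comparison was every pair over 0.1. The numbers were not used as pairs because same-numbered libraries are not stated to share an animal or batch. With the replicate block 8186 genes were called with LPS_NCT503 against LPS, 9714 with LPS against control and 8098 with LPS_NCT503 against control, and it changed no call of a member. Of the other genes named, Lbp and Il1rl1 (adjusted p = 0.0447) passed under the block with LPS_NCT503 against LPS. With 3 libraries a group the exact tests cannot go below 0.1.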
